A study of Homo sapiens with 6 samples.

Results

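The arms of the human miR-652 hairpin, hsa-miR-652-3p and hsa-miR-652-5p (below miR-652-3p and miR-652-5p), were examined in small RNA libraries of melanoma cells exposed for 24 hours to RSL3 combined with IFN-γ (3 libraries) or to RSL3 alone (3 libraries). Both arms were taken as named entries, 2 of the 1596 mature miRNAs in the deposited table, because their levels were seen to move apart between these groups. The difference between the groups therefore chose the members, and it is given below as a description without a test. RSL3 drives cells into ferroptosis, an iron-dependent death by lipid peroxidation, through inactivation of GPX4, and IFN-γ is a cytokine of activated T cells. All 6 libraries thus carry RSL3, and no untreated cells or cells given IFN-γ alone were analysed here. The sample labels name the cells as A2058, whereas the text of the paper names A375. Each is an established line from human melanoma, and these sources do not settle which of them the libraries came from. Doses are not given in the labels.

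A miRNA hairpin is cut by DROSHA in the nucleus and by DICER1 in the cytoplasm to a duplex of its 5′ arm and its 3′ arm. An Argonaute protein usually keeps the strand whose 5′ end is less firmly paired, while the other strand is mostly discarded, so that the arms of a single precursor can stand at very different levels. MiR-652 is conserved in mammals, and its hairpin is transcribed with TMEM164, a gene for a membrane acyltransferase that makes arachidonoyl ether phospholipids, lipids that are prone to peroxidation in ferroptosis. TMEM164 RNA itself is not measured by small RNA libraries.

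The sequences of the arms are shown because the results turn on their ratio. They come from RefSeq on GRCh38.p14, plus strand, 5′ to 3′, and capitals mark the seed (bases 2 to 8), the part that chiefly selects target RNAs.
miR-652-5p (chrX:110055349-110055373): cAACCCUAggagagggugccauuca
miR-652-3p (chrX:110055389-110055409): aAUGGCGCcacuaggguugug
In the hairpin (chrX:110055329-110055426, plus strand, 98 nt), capitals mark the arms, the 5p arm first, with 15 nt between them.
MIR652: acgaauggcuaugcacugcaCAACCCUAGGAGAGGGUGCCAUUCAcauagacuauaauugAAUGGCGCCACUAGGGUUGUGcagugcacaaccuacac

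In GENCODE 29 the hairpin has the same position and lies within an intron of TMEM164 on the same strand, in each of the 5 of 8 annotated transcripts whose span covers it, and in no exon. In TMEM164-202 this is intron 2, from 110004165 to 110067346, and the hairpin stands 11920 nt before the next exon. The arms differ in length, 21 nt for miR-652-3p and 25 nt for miR-652-5p, but hardly in GC content, at 57.1% and 56.0%. In the predicted fold of the hairpin (minimum free energy −53.1 kcal/mol) 18 bases of each arm are paired with the other arm. Of the first 4 bases at its 5′ end, miR-652-3p has 1 in a G-C pair and 3 in A-U pairs, and miR-652-5p has 2 in G-C pairs and 2 in A-U pairs. No other human mature miRNA in the RefSeq table has the seed of either arm (0 for each), so neither arm has family members among the measured miRNAs.

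Raw counts totalled 4383940 to 5367150 in the combined treatment libraries and 4897890 to 6513382 in the RSL3 libraries. They were scaled by TMM, a factor per library from edgeR, to CPM, the counts of a miRNA per 1e6 scaled reads of its library. Reads of the melanocyte and melanoma markers summed to 94591 to 148270 CPM in the combined treatment group and 86432 to 116350 CPM in the RSL3 group, nearly all of it miR-146a-5p. MiR-211-5p, made from the melanocyte gene TRPM1, was at 286 to 387 CPM in the combined treatment group and at 269.9 to 318 CPM in the RSL3 group. Other markers of this list went the other way, which the sum does not show. The mean of miR-204-5p was 170 CPM with the combined treatment and 286 CPM with RSL3. That of miR-514a-3p was 24.3 CPM with the combined treatment and 63.8 CPM with RSL3. The 5 epithelial markers summed to 44.7 to 73.3 CPM in the combined treatment group and 48.6 to 103.5 CPM in the RSL3 group, and the 5 of blood cells to 84.3 to 331 CPM in the combined treatment group and 98.8 to 166 CPM in the RSL3 group. The 4 markers of other tissues summed to 299 to 478 CPM in the combined treatment group and 262 to 1384 CPM in the RSL3 group. None of these markers was at 0 in all libraries, and their part in the results below was not tested.

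MiR-652-3p was the abundant arm in every library and was somewhat higher in the combined treatment group, with overlap between the groups. It was counted with 3400, 6537 and 5967 reads in replicates 1, 2 and 3 of the combined treatment and with 3084, 3885 and 4092 reads in replicates 1, 2 and 3 of RSL3. Scaled, this was 821, 1116 and 963 CPM with the combined treatment, against 608, 869 and 716 CPM with RSL3. Replicate 1 of the combined treatment lay below replicate 2 of RSL3, so the ranges overlapped. The means were 967 ± 148 CPM in the combined treatment group and 731 ± 131 CPM in the RSL3 group (SD, n = 3 each). The log2 fold change from edgeR was 0.40 (standard error 0.24), at place 202 from the highest of the 758 miRNAs tested. Over all 6 libraries the arm ranked 91 of 1596 by mean CPM.

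MiR-652-5p, the minor arm, was lower in every library of the combined treatment than in any RSL3 library. It was counted with 76, 35 and 51 reads in replicates 1, 2 and 3 of the combined treatment and with 341, 128 and 199 reads in replicates 1, 2 and 3 of RSL3. Scaled, this was 18.4, 5.98 and 8.23 CPM with the combined treatment, against 67.3, 28.6 and 34.8 CPM with RSL3. The highest library of the combined treatment stood at 18.4 CPM and the lowest RSL3 library at 28.6 CPM, so the groups did not overlap. The means were 10.9 ± 6.60 CPM in the combined treatment group and 43.6 ± 20.8 CPM in the RSL3 group (SD, n = 3 each), 4.07-fold lower with the combined treatment by edgeR, a log2 fold change of −2.02 (standard error 0.46). This was the 9th lowest log2 fold change of the 758 tested miRNAs, and among the 176 hairpins with both arms tested its place among the 5p arms was 1 from the lowest. The arm ranked 334 of 1596 by mean CPM. Since bulk RNA was sequenced, fewer cells holding the arm and less of it per cell cannot be told apart.

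**Figure D1:**
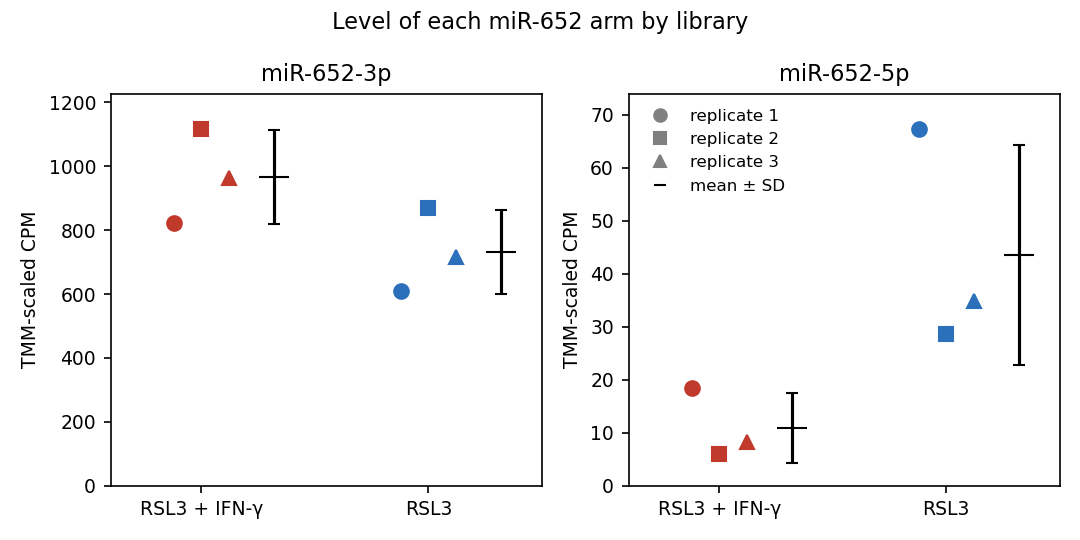
TMM-scaled CPM of miR-652-3p (left) and miR-652-5p (right) in each library, RSL3 combined with IFN-γ in red and RSL3 in blue, with a symbol for each replicate number and black bars for mean ± SD (n = 3). The 3p points of the groups overlap between 821 and 869 CPM, whereas all 5p points of the combined treatment lie at or below 18.4 CPM and all those of RSL3 at or above 28.6 CPM.

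Of the 2 arms, 1 (miR-652-5p) was among the miRNAs called lower in the combined treatment group by edgeR's quasi-likelihood test at an adjusted p under 0.05, as were 2.24% of the 758 tested miRNAs, and neither was among the 2.51% called higher. Its groups did not overlap on the lower side, as in 14.8% of the tested miRNAs. Nothing is read from these counts, since the arms were picked on the same contrast. The call was lost when replicate 2 or 3 of the combined treatment or replicate 1 of RSL3 was left out, with log2 fold changes of −1.74, −1.87 and −1.56. Directions are relative to the scaling. With library totals only, upper-quartile factors or DESeq2's size factors, miR-652-3p lay between 0.29 and 0.79 and miR-652-5p between −2.10 and −1.72 on the log2 scale, while the median of all tested miRNAs moved between −0.13 and 0.33. Relative to that median, the 3p arm stood at 0.42 to 0.46 and the 5p arm at −2.06 to −1.97 under these alternatives.

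In CPM, which counts reads and is relative to the library, the 5p difference was small beside that of the 3p arm. The mean 5p level was lower by 32.7 CPM in the combined treatment group, while the mean 3p level was higher by 236 CPM. Both arms together stood at 978 ± 141 CPM in the combined treatment group and 775 ± 113 CPM in the RSL3 group (SD, n = 3 each). The mean of the summed reads thus moved in the direction of the 3p arm, and like that arm it is relative to the scaling. The groups overlapped, with the lowest library of the combined treatment at 840 CPM and the highest RSL3 library at 897 CPM.

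The ratio of the arms was formed within each library, where no scaling factor enters. MiR-652-3p had 44.7, 186.8 and 117 reads for each read of miR-652-5p in replicates 1, 2 and 3 of the combined treatment, and 9.04, 30.4 and 20.6 in replicates 1, 2 and 3 of RSL3. Every library of the combined treatment lay above every RSL3 library. On the log2 scale, with 0.5 reads added to each arm, the ratio was 6.62 ± 1.05 in the combined treatment group and 4.15 ± 0.89 in the RSL3 group (SD, n = 3 each), a difference of 2.47 against a pooled SD of 0.97. Adapters are not joined to every small RNA with the same ease, so the ratio counts reads and not molecules. It is compared between libraries, and where its level is set beside that of other hairpins below, the level describes reads only.

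As a share of the reads of both arms, miR-652-5p took 2.19%, 0.53% and 0.85% in replicates 1, 2 and 3 of the combined treatment and 9.96%, 3.19% and 4.64% in replicates 1, 2 and 3 of RSL3. The exact (Clopper-Pearson) 95% interval reached up to 2.73% in replicate 1 of the combined treatment, the highest of its group, and down to 2.67% in replicate 2 of RSL3, the lowest of its group. These intervals overlap, and they cover counting error only. Within each group the shares differed by more than the intervals allow, as between 8.97% to 11.0% in RSL3 replicate 1 and 4.03% to 5.31% in RSL3 replicate 3.

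Libraries of the same replicate number deviated together in this hairpin. In both groups replicate 1 had the lowest ratio, replicate 3 the middle one and replicate 2 the highest. Of the 181 hairpins with both arms measured, 35 had the same order in both groups, whatever that order was. With 3 libraries per group such a match is frequent without any pairing, so nothing is read from this count. The log2 ratio was higher in the combined treatment by 2.30, 2.61 and 2.50 for numbers 1, 2 and 3, so that the differences varied less (SD 0.16, n = 3) than the libraries within a group. The SD of these differences was the 9th lowest of the 181 hairpins, whose median was 0.69. Some of these hairpins had an arm averaging near 10 reads, where counting error is larger. The rank thus also depends on depth, for which it was not matched. For the 3p arm the same-numbered differences in log2 CPM were 0.43, 0.36 and 0.43 (SD 0.04), and for the 5p arm they were −1.87, −2.26 and −2.08 (SD 0.19). With the replicate number as a block in edgeR, the standard error was 0.18 for the 3p arm (log2 fold change 0.41) and 0.24 for the 5p arm (−2.06), and the number of miRNAs called in the whole table went up to 82, against 36 without it.

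**Figure D2:**
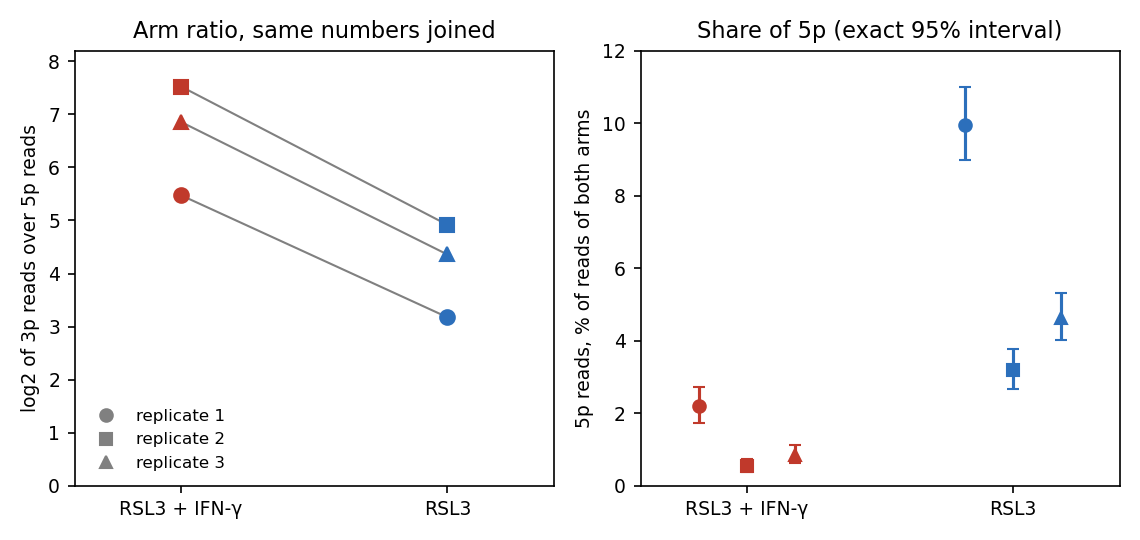
Left, log2 of 3p over 5p reads of miR-652 by library, with grey lines joining libraries of the same replicate number. Right, the 5p share of the reads of both arms in percent, with exact 95% intervals, RSL3 combined with IFN-γ in red and RSL3 in blue. The 3 lines run nearly parallel, with differences of 2.30 to 2.61, and the shares lie between 0.53% and 2.19% with the combined treatment and between 3.19% and 9.96% with RSL3.

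Set beside other hairpins, miR-652 had a large divergence of its arms. Among the 181 hairpins whose arms each averaged 10 reads or more, 79 had more 3p than 5p reads, and miR-652 ranked 19 by its mean log2 ratio. The change of the log2 ratio ran from −0.82 at the 10th to 1.20 at the 90th percentile of these hairpins, with a median of 0.13. That of miR-652, 2.47, was the 3rd highest, after miR-6840 (2.90) and miR-338 (2.51). These had only 16.8 and 10.2 reads of the 3p arm per library on average, against 4494 reads of miR-652-3p and 138 of miR-652-5p. By limma at an adjusted p under 0.05, 0% of the hairpins were called for the ratio (0 of 181, with 35 at an unadjusted p under 0.05). Among the 103 hairpins whose arms each averaged 50 reads or more, 4 were called. The change of miR-652 was the highest of these 103, a description only, since miR-652 was chosen for the divergence of its arms. Ratios without overlap between the groups were found in 22.7% of the 181 hairpins, and miR-652 was among these by choice.

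The hairpins next in order were miR-502 (1.91) and miR-548b (1.90), the first of a cluster in CLCN5 and the second of a family derived from transposons. At the other end stood miR-548o (−1.55), miR-1287 (−1.45), miR-664a (−1.38), miR-6516 (−1.33) and miR-211 (−1.28). The less abundant arm averaged only 11.7 to 14 reads per library in miR-548o, miR-1287, miR-6516 and miR-211, and 17.8 in miR-548b. In 176 hairpins with both arms tested, 54 had a 3p arm above 0 and a 5p arm below 0 in log2 fold change, as miR-652 did, 27 had the opposite, 42 had both above and 53 both below 0. The medians were 0.05 for 3p arms and −0.13 for 5p arms. Some arms of different names had the same mean reads and log2 fold change, such as miR-365a-3p and miR-365b-3p (both −1.23). The hairpins counted here and above are therefore not all separate measurements.

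**Figure D3:**
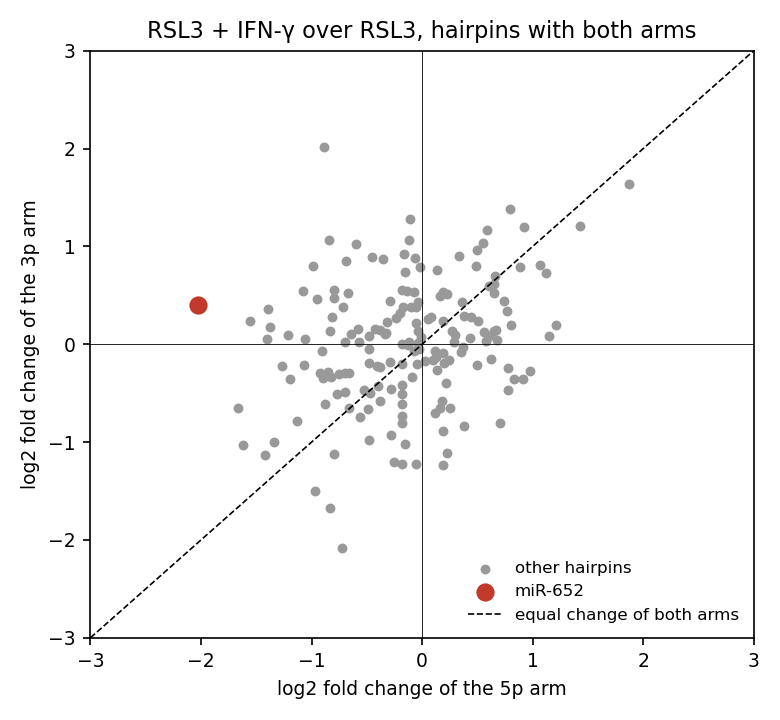
Log2 fold change of the 3p arm (vertical) against that of the 5p arm (horizontal), RSL3 combined with IFN-γ over RSL3, for 176 hairpins with both arms tested. The dashed line marks equal change of both arms, and miR-652 (red) lies at −2.02 and 0.40, the leftmost point of the plot.

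The 3 hairpins nearest to miR-652 in mean ratio and in reads of both arms were miR-887, miR-210 and miR-576. In miR-887 the log2 ratio was 5.09 in the combined treatment group and 5.11 in the RSL3 group, so that its arms moved alike (log2 fold changes 0.59 for 3p and 0.60 for 5p, neither called by edgeR). In miR-210, a hairpin induced by hypoxia, both arms were called higher by edgeR, and the log2 ratio was 5.89 in the combined treatment group and 6.10 in the RSL3 group. MiR-576 had a log2 ratio of 4.33 in the combined treatment group and 3.58 in the RSL3 group. The groups overlapped in the ratio of all 3 of these hairpins. The difference between them and miR-652 was not tested, since miR-652 was chosen for its ratio.

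**Figure D4:**
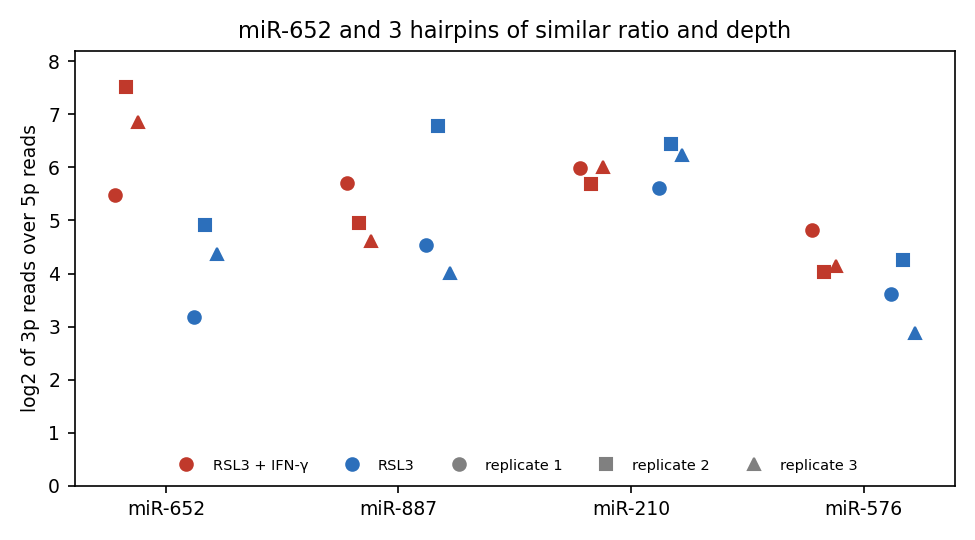
Log2 of 3p over 5p reads in each library for miR-652 and the 3 hairpins nearest to it in mean ratio and reads, RSL3 combined with IFN-γ in red left of RSL3 in blue, with a symbol for each replicate number. Red and blue points are apart in miR-652 (lowest red 5.47, highest blue 4.92) and overlap in the others.

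A partial list of other hairpins in introns of protein-coding genes had as many ratios above 0 as below. The list was drawn up with earlier results of these data known and is not complete. It leaves out the hairpins in introns of CLCN5, which are given with chromosome X. Apart from these, unlisted hairpins were not searched for hosts, among them miR-338 (2.51) and miR-548b (1.90). The list therefore does not show how intronic hairpins in general behaved. Of the 43 hairpins listed beside miR-652, each within its named host on the same strand in GENCODE 29, 26 had both arms measured, while miRNAs made from several hairpin copies could not be joined to a single host by name. Their median change of the log2 ratio was 0.03, against 0.13 over all hairpins, 13 of the 26 lay above 0, and 0 were called by limma, as in all hairpins. The largest changes within the list were −1.28 for miR-211 (in TRPM1) and −1.09 for miR-33a (in SREBF2, the sterol regulator). They were followed by −0.98 for miR-151a (in PTK2, focal adhesion kinase) and 0.73 for miR-93 (in MCM7, a replication helicase subunit). The 3p arm of miR-211 averaged only 11.8 reads per library. By edgeR 0 of their 26 3p arms and 0 of their 26 5p arms were called, beside 6 3p arms called higher and 2 lower, and 2 5p arms called higher and 5 lower, over all 181 hairpins, so that 0 calls in a list of this size is near the share over all hairpins.

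Of the other hairpins on chromosome X, 12 had both arms measured and both matched by name to RefSeq on this chromosome only. Hairpins with an arm not matched in this way were left out, so the list is not complete. Its median change of the log2 ratio was 0.48, against 0.13 over all hairpins. Of the 12, 9 lay above 0, beside 102 of all 181 hairpins. The highest of these 12 were miR-502 (1.91) and miR-500a (1.20), both in introns of the chloride transporter gene CLCN5. As these share a host, the 12 are not all separate loci, and nothing is read from their count for chromosome X. In miR-502 the 3p arm had a log2 fold change of 0.24 and the 5p arm −1.56, neither called by edgeR. Of 42 other tested mature miRNAs matched in the same way, 2 were called lower and 0 higher, beside 2.24% and 2.51% of all tested miRNAs. The 2 were miR-514a-3p, also on the melanoma marker list, and miR-651-5p. The median log2 fold change of the 42 was −0.23, against −0.04 over all tested miRNAs. None of the 42 had a log2 fold change below that of miR-652-5p.

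The miRNAs most like each arm in profile over the 6 libraries were listed as a description. These libraries hold the contrast on which the arms were picked for moving apart, so different neighbours follow from that choice. The 5 nearest to the 3p arm had log2 fold changes of 0.28 to 0.50, and the 5 nearest to the 5p arm −2.25 to −1.31. Likeness was the root mean square difference of log2 CPM, each centred on its own mean, among 472 other tested miRNAs averaging 10 CPM or more, whose profiles share libraries and both treatments. Nearest to miR-652-3p were miR-378a-3p (0.08), miR-760 (0.09), miR-3176 (0.11), miR-1307-3p (0.11) and miR-422a (0.12), against a median of 0.46. Nearest to miR-652-5p were miR-548ah-3p (0.34), miR-515-5p (0.36), miR-548f-3p (0.36), miR-19a-3p (0.36) and miR-548p (0.38), against a median of 1.19. MiR-548ah-3p and miR-548p share most of their bases in the same order, so reads of these family members may not be separate. The difference between the arms of miR-652 themselves was 1.44, with the contrast that chose them included.

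GC content differed little between the arms. The loess trend of each library on GC content amounted to 0.19 at the GC content of miR-652-3p and 0.16 at that of miR-652-5p (log2, combined treatment minus RSL3), from 679 of the 758 tested miRNAs with a known sequence. With this trend removed, the log2 fold changes were 0.22 for the 3p arm and −2.20 for the 5p arm, and the change of the log2 ratio was 2.44. The 5 miRNAs nearest to miR-652-5p in profile had a GC content of 15.8% to 37.5%, all below its own 56.0%, whereas the 5 nearest to miR-652-3p had 54.5% to 72.7%.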

How the data were processed

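Small RNA of 6 libraries (3 per group) was sequenced by the authors. The labels name a small RNA library kit, whereas the paper's methods describe a directional RNA kit. Tools named in the submitters' processing notes were bcl2fastq, edgeR and Bowtie 1.1.1, with GRCh38 as build and without their roles. The miRBase release and how multiply matching reads were counted were not stated. The table deposited by the authors holds raw read counts per mature miRNA and a normalized signal, in which counts are divided by a library total smaller than the table's sum. It also holds, from the authors' own comparison, a log2 fold change, a linear fold and a p-value. Only the counts were used.

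EdgeR 4.0.16 in R 4.3.3 (quasi-likelihood test, TMM, two-sided) was run on the counts of 758 of 1596 miRNAs kept by its filter (minimum count 10, minimum total 15), with Benjamini-Hochberg adjustment. Arms were joined by name and their ratios fitted with limma 3.58.1. Small RNA reads span a whole miRNA, so counts were not divided by length. RefSeq sequences matched 1425 miRNAs by name, and the hairpin was folded with RNAfold 2.7.2. Alternatives used DESeq2 1.42.0, other scalings, no filter, a replicate block, a GC trend (loess, span 0.75) and each library left out. The fits were tested on simulated data.

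The groups share replicate numbers in the labels, which do not say what these mean. After subtraction of group means, same-numbered libraries correlated at 0.23, 0.22 and 0.21 across miRNAs, above the bound of 0.1 taken as pairing. No pair of libraries agreed within counting noise. No source states separate cultures, so spreads and p-values may be technical.

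Named were both arms, the 5 profiles most like each, miRNAs sharing a seed, the 5 largest changes of the ratio each way, up to 4 intronic hairpins by size of change, and the 3 hairpins nearest in ratio and depth. MiR-500a and the called miRNAs of chromosome X were named after their values were seen. The members and lists were chosen with earlier results of these data known.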

Additional observations from a re-analysis of the deposited data

How the results depend on the processing

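The signs of all 3 member values held under every alternative run. The log2 fold change ran from 0.22 to 0.79 for miR-652-3p and from −2.63 to −1.56 for miR-652-5p (14 settings each), and the change of the log2 ratio from 1.98 to 3.04 (11 settings). Only miR-652-3p with library totals only moved by more than the spread between replicates (0.79, against 0.40). The replicate block left the log2 fold changes at 0.41 and −2.06 and the change of the log2 ratio at 2.47, and changed no call of an arm. The number of miRNAs called was 36, or 71 with library totals only, 95 by DESeq2, 106 with no filter on low counts, 82 with the replicate block, and 21 or 22 with the GC trend removed without or with the replicate block. With single libraries left out it ran from 0 (RSL3 replicate 1 left out, where edgeR gave 124 with an unadjusted p under 0.05) to 95 (without replicate 1 of the combined treatment). Leaving out replicate 2 or 3 of the combined treatment gave 6 or 7 calls, against 55 without RSL3 replicate 2 and 22 without RSL3 replicate 3. MiR-652-5p was among the called miRNAs in 11 of the 14 alternatives. For the arm ratio 0 hairpins were called by limma, also with each library left out or with the replicate block (34 at an unadjusted p under 0.05), against 5 with 5 reads added to each arm and 4 among hairpins whose arms each averaged 50 reads or more. The rank of miR-652 among the hairpins lay between 1 and 4 in these settings. The 5p arm rests on 35 to 341 reads per library and the 3p arm on 3084 to 6537.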
